A study of Rattus norvegicus with 2 samples.

Results

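Intermediate filaments are rope-like polymers that give axons their calibre and cells their mechanical strength, and SNs and the glia around them build them from different subunits. In axons the light chain NF-L forms the core with NF-M and NF-H, whose long tails carry many phosphorylation sites, and peripherin and alpha-internexin can co-assemble with them. In DRGs, where the cell bodies of SNs lie, neurofilament-rich neurons are mainly the large myelinated ones, while peripherin is prominent in small neurons. Vimentin, GFAP, nestin and synemin are subunits of glia, vessels, connective tissue or muscle, and GFAP in satellite glia is widely used as a sign of their reaction to nerve injury.

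The genes described are the 9 that encode these subunits (Nefl, Nefm, Nefh, Prph, Ina, Vim, Gfap, Nes and Synm), of 14217 genes measured. They were taken by symbol from the annotation of the array, without use of any measured value, and all 9 had at least 1 probe set, 13 in all. Each probe set gathers several short probes for a transcript and reports their brightness as 1 signal. Where a gene had several, the brightest by mean log2 signal of the 2 arrays is its main probe set. The rule itself uses no measured value, but the members, lists and settings were chosen with earlier results of these data known. The signals and the differences between the sides are therefore given as a description.

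The groups were DRGs of the tumor side, taken on the side of the right tibia, whose marrow had received IP-B12 cells (lung carcinoma cells of the rat that destroy bone as they grow), and DRGs of the control side, belonging to the left tibia. The animals were female Sprague-Dawley rats aged 4 weeks per the paper's methods, which give 100000 inoculated cells and collection on day 14 but neither the number of rats nor which of their ganglia were taken. The control is the opposite side, and no rat without tumor cells is described for these arrays. Each side is 1 array of the GeneChip Rat Genome 230 2.0, so neither a replicate error nor a test can be given, and every difference below describes these 2 arrays.

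The median signal was 72.7 on the tumor-side array and 69.0 on the control-side array, and the median log2 ratio (tumor side over control side) was 0.08 over the 9691 genes above the signal rule. The rule compared a gene's higher signal with the median of the array it was read on and kept the gene if it was no lower, and 8 of the 9 intermediate filament genes met it, all but Gfap. A gene was called different at a fold of 2 or more. Over genes above the rule 0.134% were called higher on the tumor side and 0.186% lower. Of the 8 intermediate filament genes above the rule, 0 were called in either direction, as was also true of the 9 at any signal, where 4.31% of all genes were called higher and 3.71% lower. With so low a background at either level, a count of 0 in 8 or 9 genes does not set them apart from other genes.

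**Figure D1:**
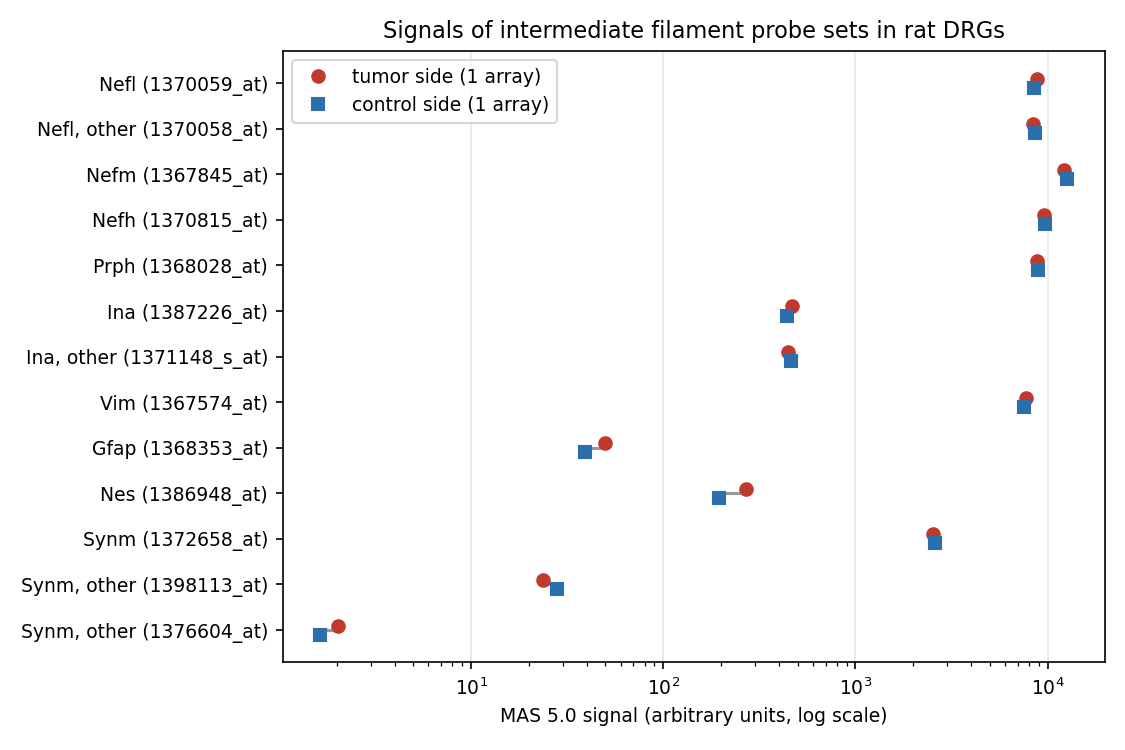
MAS 5.0 signals (arbitrary units, log scale) of the 13 probe sets of the 9 intermediate filament genes, with circles for the tumor-side array and squares for the control-side array. The symbols of both sides nearly coincide for Nefl, Nefm, Nefh, Prph, Vim and the main probe set of Synm, and stand furthest apart among main probe sets for Nes, at 270.8 and 195.3.

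The neurofilament genes had nearly equal signals on both sides. Nefl, the light chain on which the other neurofilament subunits depend for assembly, had a signal of 8805 in tumor-side DRGs and 8513 in control-side DRGs on its main probe set 1370059_at (log2 ratio 0.049). Its other probe set 1370058_at had 8355 on the tumor side and 8652 on the control side, a log2 ratio of -0.05. The 2 probe sets of this 1 gene thus went opposite ways by 0.099 on the log2 scale, so no direction can be given for Nefl.

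Nefm, the medium chain, had 12203 on the tumor side and 12688 on the control side on its only probe set (log2 ratio -0.056). Nefh, the heavy chain with the longest phosphorylated tail, had 9553 on the tumor side and 9755 on the control side (log2 ratio -0.030). Both were slightly lower on the tumor side, by less than the 2 probe sets of Nefl differed from each other. In the RefSeq annotation of the assembly GRCr8, Nefl and Nefm are neighbours with 0 protein-coding genes between them, while Nefh lies on another chromosome. Set against Nefl on the same array, the log2 ratio was lower by 0.105 for Nefm and by 0.079 for Nefh, on the main probe sets, which is again about the difference between the probe sets of Nefl.

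Prph encodes peripherin, which the study stained as a marker of SNs. Prph had 8852 on the tumor side and 8896 on the control side on 1 probe set, with a log2 ratio of -0.007, the smallest in size among the 9 genes. Ina, which encodes alpha-internexin, a subunit better known from the central nervous system, had 468 on the tumor side and 439 on the control side on probe set 1387226_at (log2 ratio 0.093). Its other probe set, 1371148_s_at, had 444 on the tumor side and 461 on the control side (log2 ratio -0.052). The mean signals of these 2 probe sets, 453.5 and 452.5, were almost tied, so the sign of Ina rests on a near-tie, and a name ending in _s_at marks probes that can bind more than 1 transcript. The 5 neuronal genes lay between log2 ratios of -0.056 and 0.093, with a median of -0.007, against the median of 0.08 over genes above the rule. The 500 probe sets nearest in signal had a lower median, 0.043, for Nefl, Nefm, Nefh and Prph, and 0.089 for Ina.

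**Figure D2:**
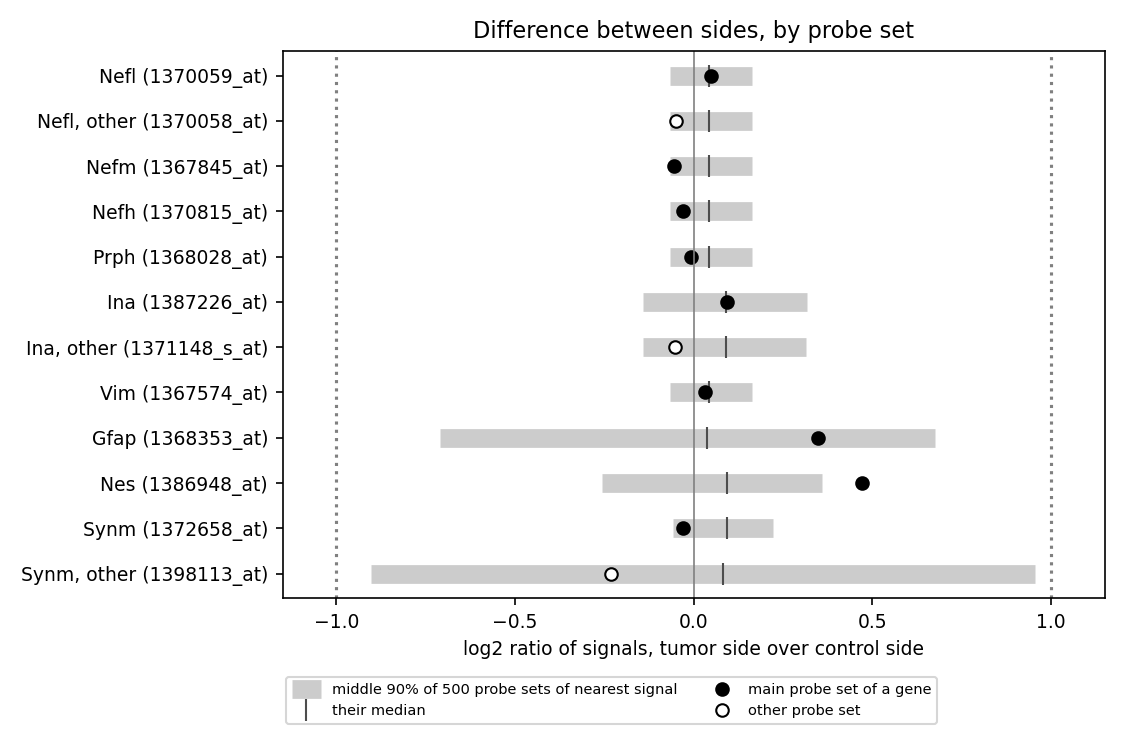
Log2 ratios (tumor side over control side) of 12 of the 13 probe sets (filled circles, main probe set of a gene; open circles, others), with grey bars for the middle 90% and ticks for the median of the 500 probe sets nearest in signal, and dotted lines at a fold of 2. Nes, at 0.47, lies to the right of its grey bar, which ends at 0.36, and the other main probe sets lie inside theirs. By definition 10% of the neighbours lie outside a bar. The dimmest probe set of Synm is left out, as its signals did not exceed those of the trp control probe sets.

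Among the subunits of glia and other cells, vimentin and synemin were as level as the neurofilaments, and nestin differed most. Vim, the main subunit of mesenchymal cells and also made by glia, had 7738 on the tumor side and 7573 on the control side (log2 ratio 0.031, turning to -0.053 when ratios were centred on their median and to -0.019 after loess). Synm, a large subunit that joins other intermediate filaments, had 2546 on the tumor side and 2602 on the control side on its main probe set (log2 ratio -0.031). Of its other 2 probe sets, 1398113_at had 23.8 on the tumor side and 27.9 on the control side (log2 ratio -0.23), and 1376604_at had 2.04 on the tumor side and 1.64 on the control side. The signals of 1376604_at were below the brightest of the trp control probe sets, which target a bacterial transcript and reached 4.63 on the tumor side and 5.39 on the control side, so no ratio is read from them. With all 3 probe sets averaged the log2 ratio of Synm was 0.017, but this mean includes 1376604_at. In the other alternative treatments the log2 ratio of Synm lay between -0.115 and -0.031.

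Nes, which encodes nestin, a subunit of neural progenitors that in adults is also found in growing vessels, muscle and some Schwann cells, had 270.8 on the tumor side and 195.3 on the control side. The tumor-side signal was 1.39 times the control-side signal (log2 ratio 0.47), short of a fold of 2 and also of 1.5, which 1.19% of genes above the rule passed upward. Of the 8 intermediate filament genes above the rule, 1 (Nes) passed a fold of 1.2 upward, where 12.0% of all genes above the rule did so and 3.99% passed it downward, and 0 of the 8 passed it downward. A share of 1 in 8 is close to that background. Of the 500 probe sets nearest to Nes in signal, 8 had a ratio as high or higher, and their middle 90% spanned -0.26 to 0.36. By definition 10% of neighbours lie outside such a span, and 1 of the 9 main probe sets (Nes) lay outside its own. Nes has 1 probe set here, so there is no second measurement of it on these arrays. Its log2 ratio lay between 0.39 and 0.47 in 9 alternative treatments of the signals. Only quantile normalization, median centring, loess and the pseudocount could change it. The filters and the choices among probe sets leave a bright gene with 1 probe set as it is.

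Gfap, the gene of the astrocyte and satellite glia filament, was dim on both arrays. Its 1 probe set had 49.6 on the tumor side and 39.0 on the control side, a ratio of 1.27 (log2 ratio 0.35). Both signals were below the medians of their arrays but above the trp controls. At this signal ratios scatter far more than for the neurofilaments: the middle 90% of the 500 nearest probe sets spanned -0.71 to 0.68, and 104 of them had a ratio as high or higher, so a difference of this size in Gfap was not distinguishable from the scatter at that signal. Where a gene had several probe sets, the SD among their log2 ratios was 0.42 around the signal of Gfap (476 genes), 0.17 around that of Nes (596 genes) and 0.041 around that of Prph (16 genes). These probe sets were read on the same 2 arrays, so the SD holds no difference between animals, dissections or repeated arrays.

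**Figure D3:**
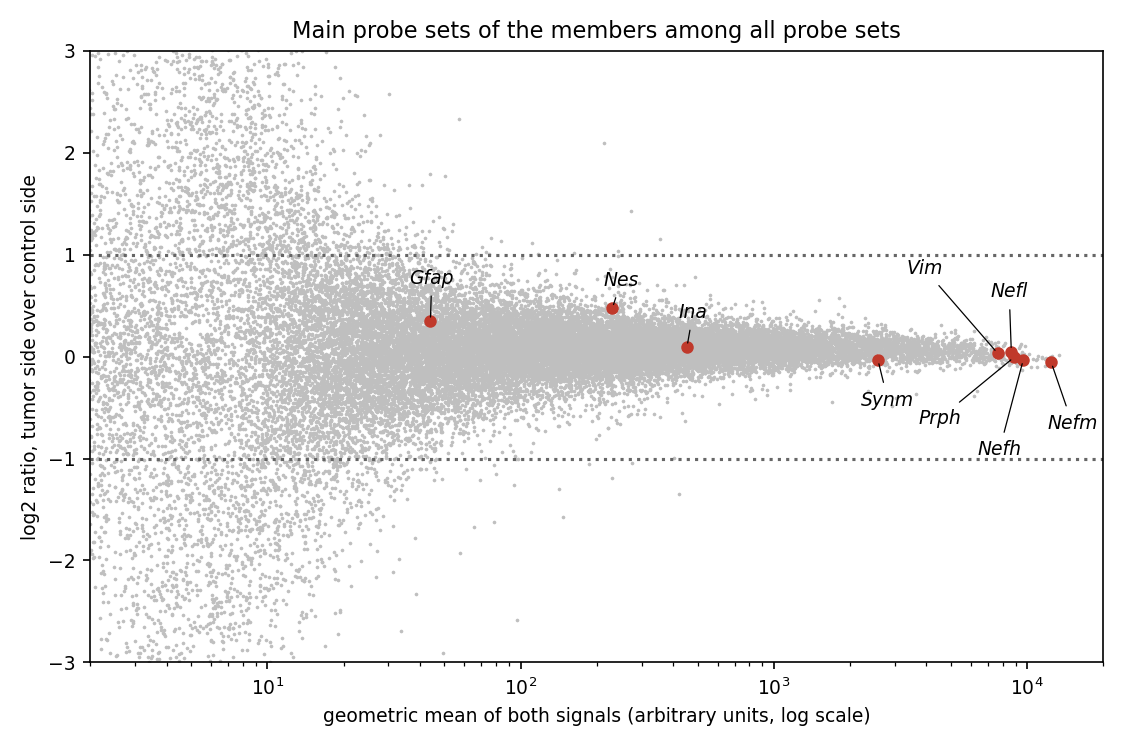
Log2 ratios (tumor side over control side) against the geometric mean of both signals (arbitrary units, log scale), with 1 grey point per probe set, the main probe sets of the 9 genes in colour and dotted lines at a fold of 2. Points beyond a log2 ratio of 3 in size or at signals below the axis are not drawn. Nefl, Nefm, Nefh, Prph and Vim lie at the bright end where the cloud is narrow, Nes on its upper edge and Gfap inside its wide part.

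The precision thus followed the signal. The main probe sets of Nefl, Nefm, Nefh, Prph and Vim, 5 genes, were among the 500 brightest probe sets on the array, which begin at a mean signal of 3927, and the middle 90% of these spanned log2 ratios of only -0.067 to 0.16. The brightest probe set of all reached 13401 on the tumor-side and 13301 on the control-side array, and Nefm at 12203 and 12688 came near it. Whether the ratios of such bright probe sets are compressed near the top of the range was not tested. Signals of different probe sets are not comparable as amounts of RNA, so the 9 genes are not ranked by level. Relative to the median log2 ratio over probe sets above the rule, 3 of the 9 main probe sets were higher (Ina, Gfap and Nes) and 6 were lower. Against the median of its own neighbours in signal, 0.043, Nefl at 0.049 was also higher.

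**Figure D4:**
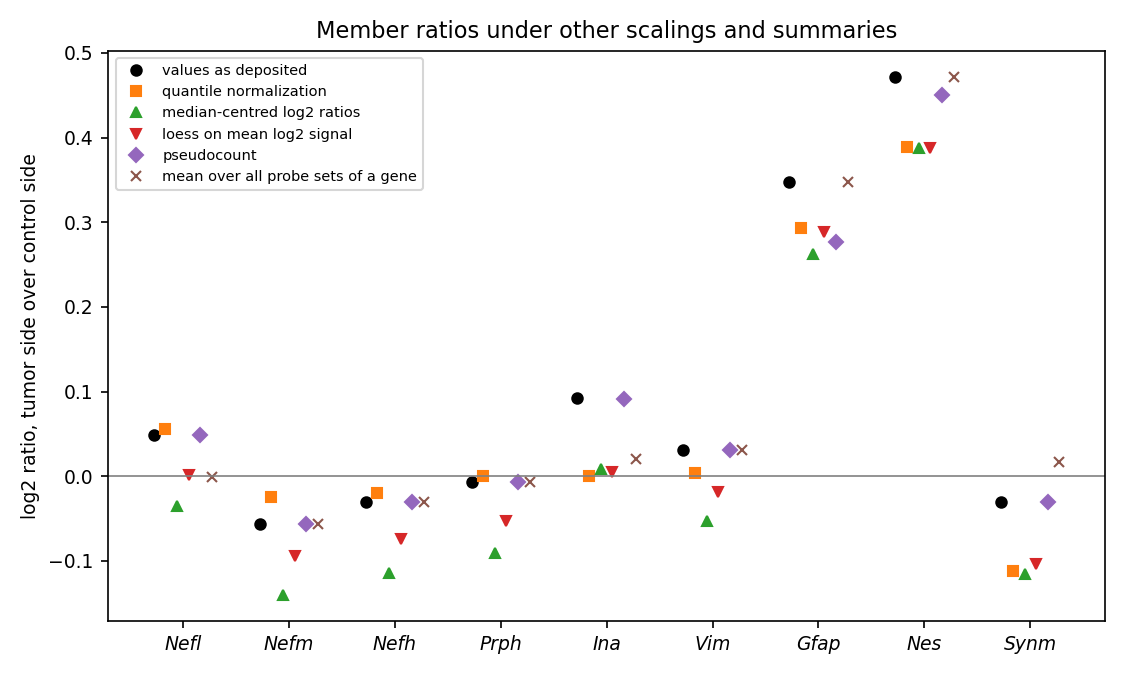
Log2 ratios (tumor side over control side) of the main probe set of each gene, with the values as deposited (black circles) and under 5 other ways of treating the signals (other symbols). The points of Nes (0.39 to 0.47) and Gfap (0.26 to 0.35) are above 0 in all of them, those of Nefm and Nefh are below 0 in all, and those of Nefl, Vim and Synm fall on both sides of 0.

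Of the measured genes above the rule whose products act on intermediate filaments, none differed by a fold of 1.5. Of 79 such genes in 7 lists (other cytoplasmic subunits, lamins, cytolinkers, kinases and phosphatases, transport motors, turnover and assembly, and RNA-binding proteins of neurofilament transcripts), 71 were measured and 53 were above the signal rule. Of these 53, 0 were called higher and 0 lower at a fold of 2, and the same counts held at a fold of 1.5, which 1.19% of genes above the rule passed upward and 0.743% downward. The median log2 ratio of the 53 was 0.025, against 0.08 over all genes above the rule. At any signal, 1 of the 71 was called higher and 1 lower at a fold of 2, where 4.31% of all genes were called higher and 3.71% lower. The gene called higher was Evpl, with 5.33 on the tumor side and 2.35 on the control side. The gene called lower was Bfsp2, with 2.99 on the tumor side and 9.78 on the control side. Both were named after their values were seen, and each had a signal below the trp controls on 1 array.

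By list, the transport motors that carry neurofilaments along axons had a median log2 ratio of 0.005 over 10 genes, with a range of -0.098 to 0.16. Kif5c, a kinesin heavy chain, had 1253 on the tumor side and 1341 on the control side, and Dync1i2, a dynein intermediate chain, had 7066 on the tumor side and 6329 on the control side (log2 ratio 0.16). Dync1h1, the dynein heavy chain, had 2834 on the tumor side and 2724 on the control side. The 13 kinases and phosphatases had a median of 0.045. Ppp2ca, the catalytic subunit of the phosphatase PP2A, which can dephosphorylate neurofilaments, had 1719 on the tumor side and 1459 on the control side, and the scaffold subunit Ppp2r1a had 729 on the tumor side and 634 on the control side.

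The 10 genes of turnover and assembly had a median log2 ratio of 0.016 and a range of -0.20 to 0.16. Among them Cryab, a small heat shock protein that chaperones intermediate filaments, had 1832 on the tumor side and 1642 on the control side, and Mfn2, a mitochondrial fusion protein mutated in an axonal neuropathy, had 1374 on the tumor side and 1578 on the control side (log2 ratio -0.20). Capn1, a calcium-dependent protease, had 254 on the tumor side and 275 on the control side. The 6 RNA-binding protein genes had a median of 0.040 and a range of -0.13 to 0.24, with Arhgef28, whose product can bind the Nefl transcript, at 231 on the tumor side and 196 on the control side. Tardbp, the gene of TDP-43, had 1709 on the tumor side and 1636 on the control side, and Atxn2, the gene of ataxin-2, had 1067 on the tumor side and 1163 on the control side. Plec, the cytolinker plectin, had 778 on the tumor side and 852 on the control side, and the 3 cytolinkers above the rule had a median of -0.027 and a range of -0.13 to 0.085. Dst, the gene of dystonin, had 4065 on the tumor side and 4142 on the control side, and Macf1, which links microtubules and actin, had 670 on the tumor side and 632 on the control side. The 9 lamin and lamin partner genes had a median of 0.044 and a range of -0.010 to 0.22. Among them Banf1, a chromatin-binding partner of the lamina, had 218 on the tumor side and 188 on the control side, and Lmna, the gene of lamins A and C, had 564 on the tumor side and 529 on the control side. Syne2, which encodes a nesprin of the nuclear envelope, had 535 on the tumor side and 505 on the control side. Of other cytoplasmic subunits 2 of 11 were above the rule. These were Krt10, a keratin, with 182 on the tumor side and 129 on the control side, and Sync, which encodes syncoilin, with 618 on the tumor side and 653 on the control side. Des, the muscle subunit desmin, was dim, with 39.7 on the tumor side and 47.9 on the control side.

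**Figure D5:**
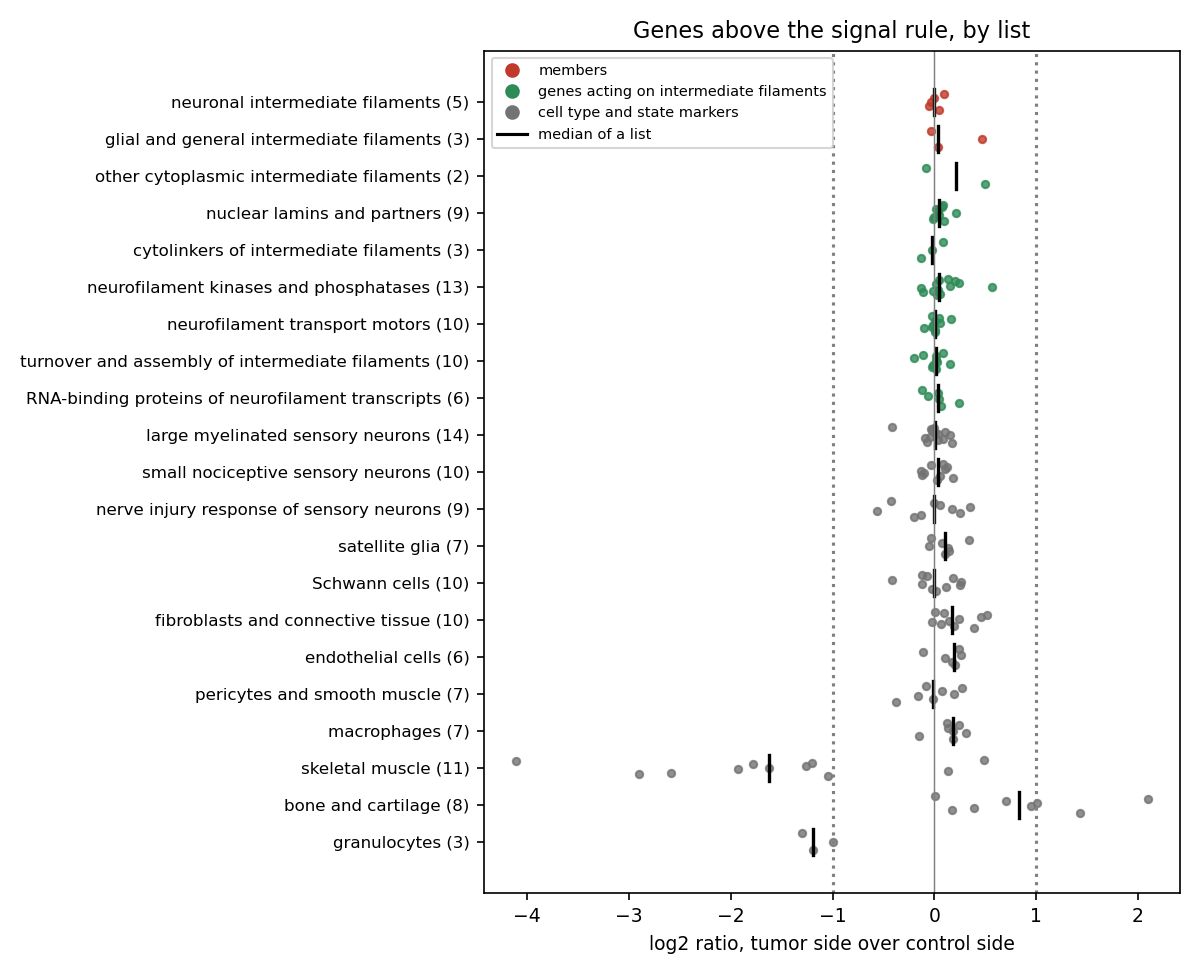
Log2 ratios (tumor side over control side) of genes above the signal rule, 1 point per gene, in the 2 lists of intermediate filament genes, the 7 lists of genes acting on them and the marker lists, with the number of genes in brackets, a black bar for the median and dotted lines at a fold of 2. Filament genes and the genes acting on them stay within a fold of 1.5, while skeletal muscle markers reach -4.11 and bone and cartilage markers 2.10.

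Markers of the neurons that carry these filaments did not differ by a fold of 2 above the signal rule. Of the 14 markers of large myelinated SNs above the rule, 0 were called, and their median log2 ratio was 0.001, with a range of -0.42 to 0.17. Necab2, a calcium-binding protein, had 56.4 on the tumor side and 75.3 on the control side, and Pvalb, a calcium-binding protein of proprioceptive neurons, had 1200 on the tumor side and 1063 on the control side. Kcnc1, a potassium channel, had 163 on the tumor side and 146 on the control side. The 10 markers of small nociceptive SNs above the rule had a median of 0.039 and a range of -0.13 to 0.18, with 0 called. Calcb, the gene of a CGRP peptide, had 3344 on the tumor side and 2948 on the control side, and Scn9a, a sodium channel, had 4436 on the tumor side and 4855 on the control side. P2rx3, an ATP-gated channel, had 2292 on the tumor side and 2107 on the control side. In bulk tissue, fewer cells of a type and less RNA per cell cannot be told apart. After nerve injury, neurofilament transcripts of axotomized SNs are known to decline while growth-associated genes increase, so genes of that response were set beside the filaments. Of 9 of them above the rule, 0 were called in either direction, where 0.134% of all genes above the rule were called higher and 0.186% lower. The median log2 ratio of the 9 was -0.003, with a range of -0.56 to 0.34. Npy, a neuropeptide induced by axotomy, had 238 on the tumor side and 350 on the control side (log2 ratio -0.56), and Flrt3, an adhesion protein, had 462 on the tumor side and 364 on the control side (log2 ratio 0.34). Sema6a, a semaphorin, had 113 on the tumor side and 152 on the control side (log2 ratio -0.42). The log2 ratios of the rest were -0.205 for Atf3, -0.136 for Gap43, -0.003 for Stmn4, 0.055 for Gadd45a, 0.177 for Jun and 0.25 for Gal.

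Markers of the cells that can hold the non-neuronal subunits are given here as measured values, and their part in the ratios of Nes, Gfap and Vim was not tested. Satellite glia markers had summed signals of 20390 on the tumor side and 19370 on the control side over 8 genes, with a median log2 ratio of 0.10 over the 7 above the rule (range -0.051 to 0.34) and Gja1, a gap junction protein of satellite glia, at 1932 on the tumor side and 1528 on the control side. Glul, the gene of glutamine synthetase, had 1694 on the tumor side and 1538 on the control side, and Slc1a3, a glutamate transporter, had 331 on the tumor side and 302 on the control side. Schwann cell markers summed to 23266 on the tumor side and 23195 on the control side over 10 genes, with a median of -0.001 and a range of -0.41 to 0.26. Gjb1, a gap junction protein of myelin, had 55.3 on the tumor side and 73.6 on the control side, and Drp2, a partner of periaxin, had 1114 on the tumor side and 928 on the control side. Mag, the myelin-associated glycoprotein, had 121 on the tumor side and 101.4 on the control side. Endothelial markers summed to 1775 on the tumor side and 1608 on the control side over 9 genes, with a median of 0.19 over the 6 above the rule and a range of -0.11 to 0.27. Cldn5, a tight junction protein of vessels, had 265 on the tumor side and 220 on the control side. Kdr, a VEGF receptor, had 281 on the tumor side and 245 on the control side, and Egfl7, a protein secreted by endothelial cells, had 74.8 on the tumor side and 63.3 on the control side.

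Fibroblast and connective tissue markers summed to 38064 on the tumor side and 35483 on the control side over 10 genes, with a median of 0.17 and a range of -0.022 to 0.52, and the matrix protein Postn had 840 on the tumor side and 588 on the control side. Col1a1, a chain of type I collagen, had 2113 on the tumor side and 1618 on the control side, and Mfap4, a microfibril protein, had 293 on the tumor side and 213 on the control side. Pericyte and smooth muscle markers summed to 2003 on the tumor side and 1976 on the control side over 10 genes, with a median of -0.009 over the 7 above the rule and a range of -0.38 to 0.27. Acta2, the smooth muscle actin, had 181 on the tumor side and 236 on the control side. Rgs5, a pericyte regulator of G protein signaling, had 256 on the tumor side and 224 on the control side, and Notch3, a receptor of mural cells, had 154 on the tumor side and 128 on the control side. Macrophage markers summed to 1716 on the tumor side and 1518 on the control side over 10 genes, with a median of 0.18 over 7 and a range of -0.15 to 0.31, and Csf1r, a growth factor receptor of macrophages, had 253 on the tumor side and 204 on the control side. Mrc1, the mannose receptor, had 304 on the tumor side and 268 on the control side, and C1qb, a complement subunit, had 81.8 on the tumor side and 69.2 on the control side. In these lists and the lists of SNs and glia, 0 of the genes above the rule were called at a fold of 2. Over all genes above the rule the shares were 0.134% higher and 0.186% lower.

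Markers of skeletal muscle, of bone and cartilage and of granulocytes differed more, and the source of their signals was not tested. For the counts below, 0.134% of all genes above the rule were called higher on the tumor side and 0.186% lower. Of 11 skeletal muscle markers above the rule, 9 were called lower on the tumor side and 0 higher. The 11 had a median log2 ratio of -1.62 and a range of -4.11 to 0.49. Of the 9, all but Acta1 had tumor-side signals below the median of that array, 72.7. They met the rule only through the control side, where they were brighter, so the rule itself favours this count. All 14 markers summed to 2455 on the tumor side and 3263 on the control side. Of these sums Myh1 alone, on a probe set ending in _x_at, gave 1742 on the tumor side and 1583 on the control side. Tpm2, also higher on the tumor side, had 196.7 there and 140.4 on the control side. Myl11, a fast-muscle myosin light chain, had 6.28 on the tumor side and 108 on the control side. Its tumor-side signal was near the 4.63 that the trp controls reached on that array. Myl1, another myosin light chain, had 39.4 on the tumor side and 236 on the control side, and Tnnc2, the troponin C of fast fibres, had 18.1 on the tumor side and 135.0 on the control side. Muscle fibres carry synemin and desmin. On the same arrays the log2 ratio was -0.031 for the main probe set of Synm and -0.23 for its dim probe set 1398113_at. It was -0.27 for Des, which was below the signal rule. The part of muscle in these ratios was not tested. Of 8 bone and cartilage markers above the rule, 3 (Bglap, Acp5 and Mmp13) were called higher on the tumor side and 0 lower. The summed signals were 17970 on the tumor side and 15707 on the control side over 10 genes. Most of them came from Spp1, with 7675.5 on the tumor side and 7642.1 on the control side, and Sparc, with 6304.6 and 5593.6. Of 3 granulocyte markers above the rule, 0 were called higher and 2 (S100a8 and Np4) lower, with 582.5 on the tumor side and 1193 on the control side summed over 6 genes. S100a9, the partner of S100a8 in calprotectin, had 286 on the tumor side and 572 on the control side, just short of a fold of 2.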

How the data were processed

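RNA of DRGs was measured on 2 arrays, 1 for the tumor side and 1 for the control side. The authors made the deposited intensity values with MAS 5.0 at default settings from 100 ng of total RNA, as 1 linear signal per probe set. How the arrays were scaled is unstated in the sources used here, and detection calls were not used here. The deposited signals were used without further normalization or a pseudocount. The array holds 57 control probe sets, 20826 others with a single symbol, 436 with more than 1 symbol and 9780 that are unnamed here. The gene identifiers of all 9 members match the RefSeq annotation of GRCr8, which also placed Mylpf as Myl11.

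No test was made, as each side has 1 array. The members, lists and settings were chosen with earlier results of these data known. Named are all members and, of each list, up to 3 genes above the signal rule with the largest ratios in size. Des, Evpl, Bfsp2, Myh1, Acta1, Tpm2, Spp1 and Sparc were chosen after their values were seen, and all injury response genes above the rule are named. The value of 1 gene that the rule names is not reported here. Ratios were set beside the 500 probe sets nearest in mean log2 signal, and beside the SD between probe sets of a gene within a fold of 2 of its signal. Alternatives were quantile normalization, median centring, loess (span 0.3), 11.1 (percentile 20 of all signals) as pseudocount, leaving the filter out, raising it to percentile 75 or requiring it on both arrays, no _s_at or _x_at probe sets, the mean over probe sets, and folds of 1.2, 1.5 and 3. The tools were statsmodels 0.14.6, pandas 2.3.3 and numpy 2.4.6 under Python 3.11.15, with matplotlib 3.10.9 for plots. The number of arrays limits the precision.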

Additional observations from a re-analysis of the deposited data

How the results depend on the processing

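The count of intermediate filament genes called was 0 in both directions at a fold of 2 in all 9 treatments of the signals and at folds of 1.5 and 3, and at a fold of 1.2 it was 1 higher (Nes) and 0 lower. The median log2 ratio of the neuronal genes, -0.007, was -0.091 with median centring and -0.053 after loess. That of the glial and general genes, 0.031, was 0.189 without the signal filter, where Gfap enters, and -0.053 with median centring. Over all genes above the rule, 13 were called higher and 18 lower, against 10 and 22 after quantile normalization, 10 and 24 with median centring, 10 and 23 after loess, and 10 and 13 with the pseudocount. These counts were 613 and 527 without the filter, 4 and 3 at percentile 75, 5 and 6 with the filter on both arrays, and 107 and 70 with the mean over probe sets. No paired analysis was possible because there is a single array on each side.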
